A study of Homo sapiens with 17 samples.

Results

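The genes described here are 47 genes of ribosome biogenesis and the nucleolus. They were taken as a fixed list of symbols, all 47 were found among the 25548 symbols of the expression table, and all 47 were among the 12015 genes with a mean of at least 1 FPKM (fragments per kilobase of transcript, scaled to the mapped fragments of the library) that were tested. The nucleolus is where RNA polymerase I transcribes the ribosomal RNA precursor, where small nucleolar ribonucleoproteins (snoRNPs) guide its modification, and where assembly factors trim it and fold it into the small and large ribosomal subunits. Box C/D snoRNPs carry out ribose methylation and box H/ACA snoRNPs carry out pseudouridylation. Many of these genes are known targets of the transcription factor MYC, and their products are abundant in growing leukaemia cells. By role, 3 of the 47 are box C/D proteins, 4 are box H/ACA proteins, 6 serve RNA polymerase I, 15 are small-subunit factors, 14 are large-subunit factors and 5 are abundant nucleolar proteins.

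RNA-seq was made from Jurkat cells, a human T-cell leukaemia line, cultured with ILT3.Fc, a soluble protein that joins the outer domain of ILT3, an inhibitory receptor, to an antibody Fc region. ILT3.Fc was used at 0, 12.5 or 25 µg/ml, and cells were taken after 6, 12 or 24 h. Of the 9 combinations of dose and time, 8 had 2 libraries and the untreated 12 h group had 1, which makes 17 libraries. The untreated groups received no ILT3.Fc; no other Fc protein is named for them, and every group is the same single line, so the values describe 1 cell line. The labels do not say that the 2 libraries of a group were grown apart, and p-values here therefore describe how much these libraries vary, which may be technical variation alone. Sequencing lane 4 held the 24 h samples together with every replicate 1 from 6 h, and lane 5 held the 12 h samples with every replicate 2 from 6 h.

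The number of genes at or above 1 FPKM was 11842 to 12016 per library, and duplicates correlated at 0.9795 to 0.9863 (Pearson, log2 scale, across genes). All 9 markers of the T-cell line were at or above 1 FPKM, while the B-cell markers MS4A1 and CD22 and the red-cell marker HBB were at or near 0; of the other markers, CD79A of B cells (mean 39.5 FPKM), NKG7 of NK cells (mean 5.2) and VIM of fibroblasts (mean 226) had a mean of at least 1 FPKM. A pair of libraries stood apart. In the first, 12.5 µg/ml 6 h replicate 1, the deviation of a gene from its mean fell with transcript length (Spearman -0.60 across genes), the summed FPKM was the highest of the 17 (557389 against 504363 in the lowest), and the 47 genes had a median deviation of 0.125 on the log2 scale against 0.025 for all genes tested. Only 8 of the 47 were below their own mean there. Genes with long transcripts were low in it: POLR1A, the largest subunit of RNA polymerase I, was 21.8 FPKM against 31.1 in its duplicate, and HEATR1, a factor of pre-ribosomal RNA transcription and processing, was 27.3 against 35.1. In the second, 25 µg/ml 24 h replicate 2, the deviation rose with GC content (Spearman 0.57). Counts that rest on either library are given below with and without it, a choice made after seeing the data.

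Promoter sequences are shown for 5 of the 47 genes on which the comparisons turn and which had an entry: NOP14, DKC1 and EBNA1BP2, which were lower at 25 µg/ml, PWP2, which was higher, and UBTF, which fell with time. Each is the 250 bases before the gene's start from RefSeq (GRCh38.p14), 5′ to 3′ on the strand of the gene. Capitals mark every occurrence, on either strand, of the E-box CACGTG to which MYC with its partner MAX binds, its variant CACGCG, the ETS-family letters CCGGAAGT and the palindrome bound by NRF1. UBTF lies at chr17:44220883-44221132 on the minus strand, NOP14 at chr4:2963407-2963656 on the minus strand, DKC1 at chrX:154762614-154762863 on the plus strand, PWP2 at chr21:44107149-44107398 on the plus strand and EBNA1BP2 at chr1:43172571-43172820 on the minus strand.
UBTF: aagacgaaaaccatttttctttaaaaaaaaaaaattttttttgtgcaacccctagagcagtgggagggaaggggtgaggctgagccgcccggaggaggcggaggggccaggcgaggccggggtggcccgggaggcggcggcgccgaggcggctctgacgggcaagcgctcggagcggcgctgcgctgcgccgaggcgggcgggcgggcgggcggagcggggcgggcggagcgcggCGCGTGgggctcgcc
NOP14: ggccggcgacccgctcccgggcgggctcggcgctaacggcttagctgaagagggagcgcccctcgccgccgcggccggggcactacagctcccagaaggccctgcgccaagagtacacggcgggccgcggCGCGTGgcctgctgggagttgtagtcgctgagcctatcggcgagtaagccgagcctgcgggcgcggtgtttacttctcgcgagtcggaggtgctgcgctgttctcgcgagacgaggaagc
DKC1: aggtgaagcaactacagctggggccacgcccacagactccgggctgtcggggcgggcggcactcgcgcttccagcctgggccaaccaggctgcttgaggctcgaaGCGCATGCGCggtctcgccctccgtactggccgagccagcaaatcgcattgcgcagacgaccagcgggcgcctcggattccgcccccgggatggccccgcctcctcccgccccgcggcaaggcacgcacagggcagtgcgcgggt
PWP2: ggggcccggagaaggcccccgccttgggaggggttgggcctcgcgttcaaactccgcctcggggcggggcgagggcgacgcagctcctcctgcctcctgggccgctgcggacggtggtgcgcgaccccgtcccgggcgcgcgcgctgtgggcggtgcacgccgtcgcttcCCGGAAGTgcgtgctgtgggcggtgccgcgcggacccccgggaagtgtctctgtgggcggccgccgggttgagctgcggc
EBNA1BP2: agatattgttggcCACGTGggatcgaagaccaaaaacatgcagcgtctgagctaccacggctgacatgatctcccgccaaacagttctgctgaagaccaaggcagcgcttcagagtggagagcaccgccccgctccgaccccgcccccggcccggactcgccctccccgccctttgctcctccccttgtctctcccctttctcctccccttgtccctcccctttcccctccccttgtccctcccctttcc

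In these 5 windows, CACGTG was found only in EBNA1BP2, starting 237 bases before the start of the gene. UBTF and NOP14 each held CACGCG on the opposite strand, DKC1 held the NRF1 palindrome and PWP2 held CCGGAAGT. A promoter entry was matched for 41 of the 47 genes. CACGTG was in 4 of those 41 (9.76%; NOP10, UTP20, NAT10 and EBNA1BP2), against 9.44% of the 8021 tested genes with an entry and 6.49% of all 27305 promoters. CACGCG was in 11 (26.8%), against 16.2% of tested genes and 9.62% of all promoters. CCGGAAGT was in 7 (17.1%, against 7.99% and 3.64%) and the NRF1 palindrome in 2, DKC1 and DDX10 (4.88%, against 2.23% and 1.13%). CCAAT, which was searched and is not capitalised, was in 26.8% of the 41, against 36.2% and 33%. Each motif was searched on its own on both strands, so matches may overlap, and a match describes the letters only.

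The 47 genes were expressed well above the typical gene. Their mean FPKM over the 17 libraries ran from 16.9 for UTP15, a small-subunit processome protein, to 880.7 for NCL (nucleolin), with a median of 65.1 against 15.1 for all tested genes. After NCL the second abundant nucleolar protein, NPM1 (nucleophosmin), had 446.0 to 597.7 FPKM across libraries. Their duplicates were close: the median within-group SD was 0.055 on the log2(FPKM + 1) scale, against 0.072 for all tested genes. Together the 47 made up 0.963% to 1.07% of the summed FPKM of a library, and the lowest shares, 0.984% and 0.963%, were in the 25 µg/ml 24 h libraries. In a bulk sample, fewer cells with a transcript and less of it per cell cannot be told apart, and FPKM is relative to the total, so a change in the total RNA of a cell does not appear in it.

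**Figure D1:**
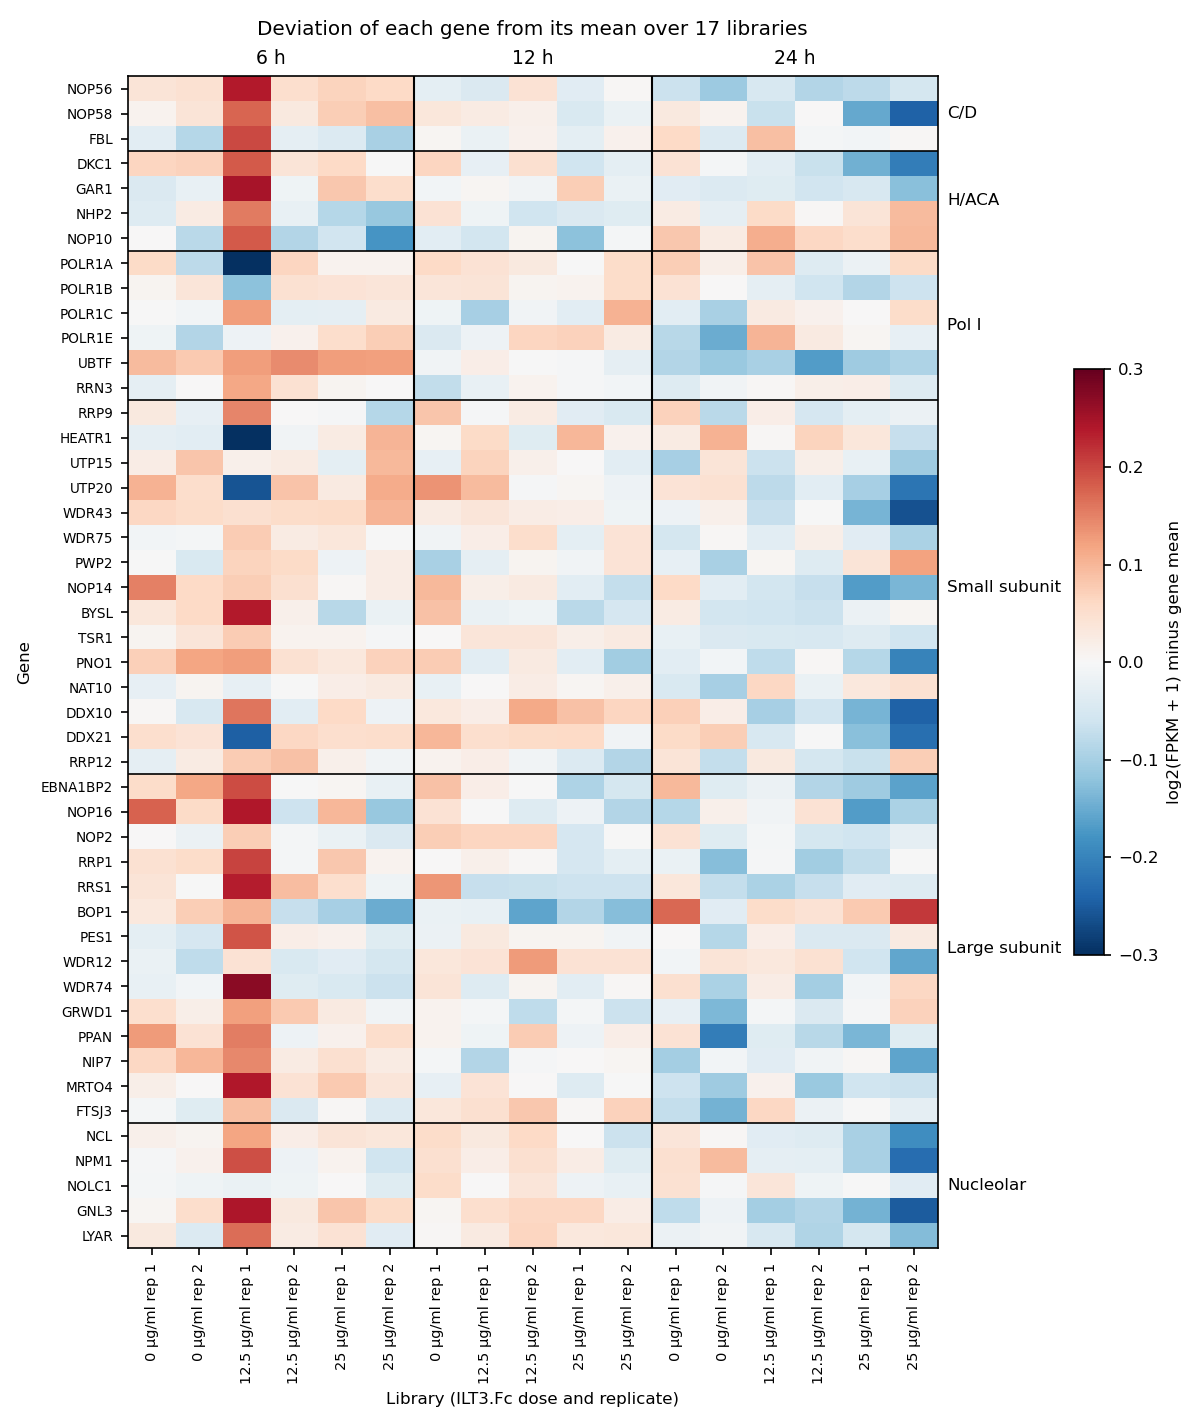
Deviation of each of the 47 genes (lines, ordered by role) from its own mean over the 17 libraries (columns, ordered by time and dose) on the log2(FPKM + 1) scale; colours end at -0.3 and 0.3 and values beyond are drawn in the end colour. The 12.5 µg/ml 6 h replicate 1 column is high for most genes, with 8 below their mean, and the 25 µg/ml 24 h columns are mostly low.

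Whether ILT3.Fc moved the ribosome assembly genes was first asked with 25 µg/ml against untreated cells, averaged over 6, 12 and 24 h. Of the 47 genes, 3 fell and 2 rose at an adjusted p under 0.05 (limma, Benjamini-Hochberg over 12015 genes). The 5 changes were small, from 0.09 to 0.14 in size on the log2(FPKM + 1) scale. Across all tested genes 9.47% were called in this comparison, 657 higher and 481 lower of 12015, so the count of 5 among 47 was near the background. The median difference was -0.021 for the 47 against 0.015 for all genes, and 33 of the 47 differences were below 0. With median centring of the libraries, 0 rose and 4 fell among the 47 (393 higher and 765 lower over all genes, which reverses the majority over all genes), and with quantile normalization 1 rose and 5 fell (539 and 653 over all genes).

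Among the small-subunit factors, NOP14, which joins the early small-subunit processome, changed most. Untreated cells had 78.6 and 73.8 FPKM at 6 h, 75.7 at 12 h and 73.8 and 69.1 at 24 h, and cells at 25 µg/ml had 70.9 and 71.8, 69.1 and 67.2, and 62.9 and 64.2. At each time both treated libraries were below every untreated one, and the 12.5 µg/ml libraries were between them at 12 and 24 h (71.6, 72.1, 68.0 and 67.3). NOP14 fell by 0.14 (SE 0.0253, limma adjusted p = 0.00851). PWP2, a scaffold protein of the same processome, went the other way: it had 44.0, 42.6, 41.1, 43.2 and 41.1 FPKM in the 5 untreated libraries and 43.5, 44.7, 43.7, 45.3, 45.3 and 48.0 in the 6 at 25 µg/ml. Its groups overlapped at 6 h and not at 12 or 24 h, and it rose by 0.09 (SE 0.0259, limma adjusted p = 0.0453). PNO1, a factor of late small-subunit maturation, was lower in every 25 µg/ml library than in the untreated ones of its time, with a difference of -0.10, but missed the threshold (limma adjusted p = 0.0602). The other 12 of the 15 small-subunit factors were not called.

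Of the 4 box H/ACA proteins, DKC1 was the 1 that passed. DKC1 encodes dyskerin, the pseudouridine synthase of the H/ACA particles and a component of telomerase. It had 135.4, 135.9, 135.5, 133.5 and 128.8 FPKM in the untreated libraries in the order of time, and 135.0, 129.3, 124.2, 126.9, 117.1 and 111.9 at 25 µg/ml. The gap was narrow at 6 h and wide at 24 h, with no overlap at any time, and DKC1 fell by 0.11 (SE 0.0311, limma adjusted p = 0.0434). Its partner GAR1 had the highest difference of the H/ACA group, 0.03, and was not called. No box C/D protein was called: the scaffold NOP58 had a difference of -0.08 and the related scaffold NOP56 one of 0.02.

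POLR1E, a subunit of RNA polymerase I, had 46.0, 43.6, 45.0, 43.8 and 41.8 FPKM in untreated cells and 48.2, 48.9, 48.7, 47.2, 46.6 and 45.6 at 25 µg/ml. Each treated library was above the untreated ones of its time, although the 12.5 µg/ml libraries at 24 h (49.9 and 47.3) were higher still. POLR1E rose by 0.10 (SE 0.0275, limma adjusted p = 0.0395), and the other 5 genes of the polymerase group were not called, with POLR1B, the second-largest subunit, lowest at -0.03. EBNA1BP2, a scaffold in early assembly of the large subunit, was the 1 large-subunit factor of 14 to pass: 160.1, 167.0, 163.8, 164.9 and 150.3 FPKM untreated against 154.7, 151.8, 144.4, 148.6, 143.1 and 137.7 at 25 µg/ml. Its groups did not overlap at any time, and it fell by 0.14 (SE 0.0392, limma adjusted p = 0.0492). FTSJ3, a methyltransferase of large-subunit assembly, was the highest of that group at 0.03 and was not called. None of the 5 abundant nucleolar proteins was called, from NPM1 at -0.11 to LYAR, a nucleolar zinc-finger protein, at -0.01.

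**Figure D2:**
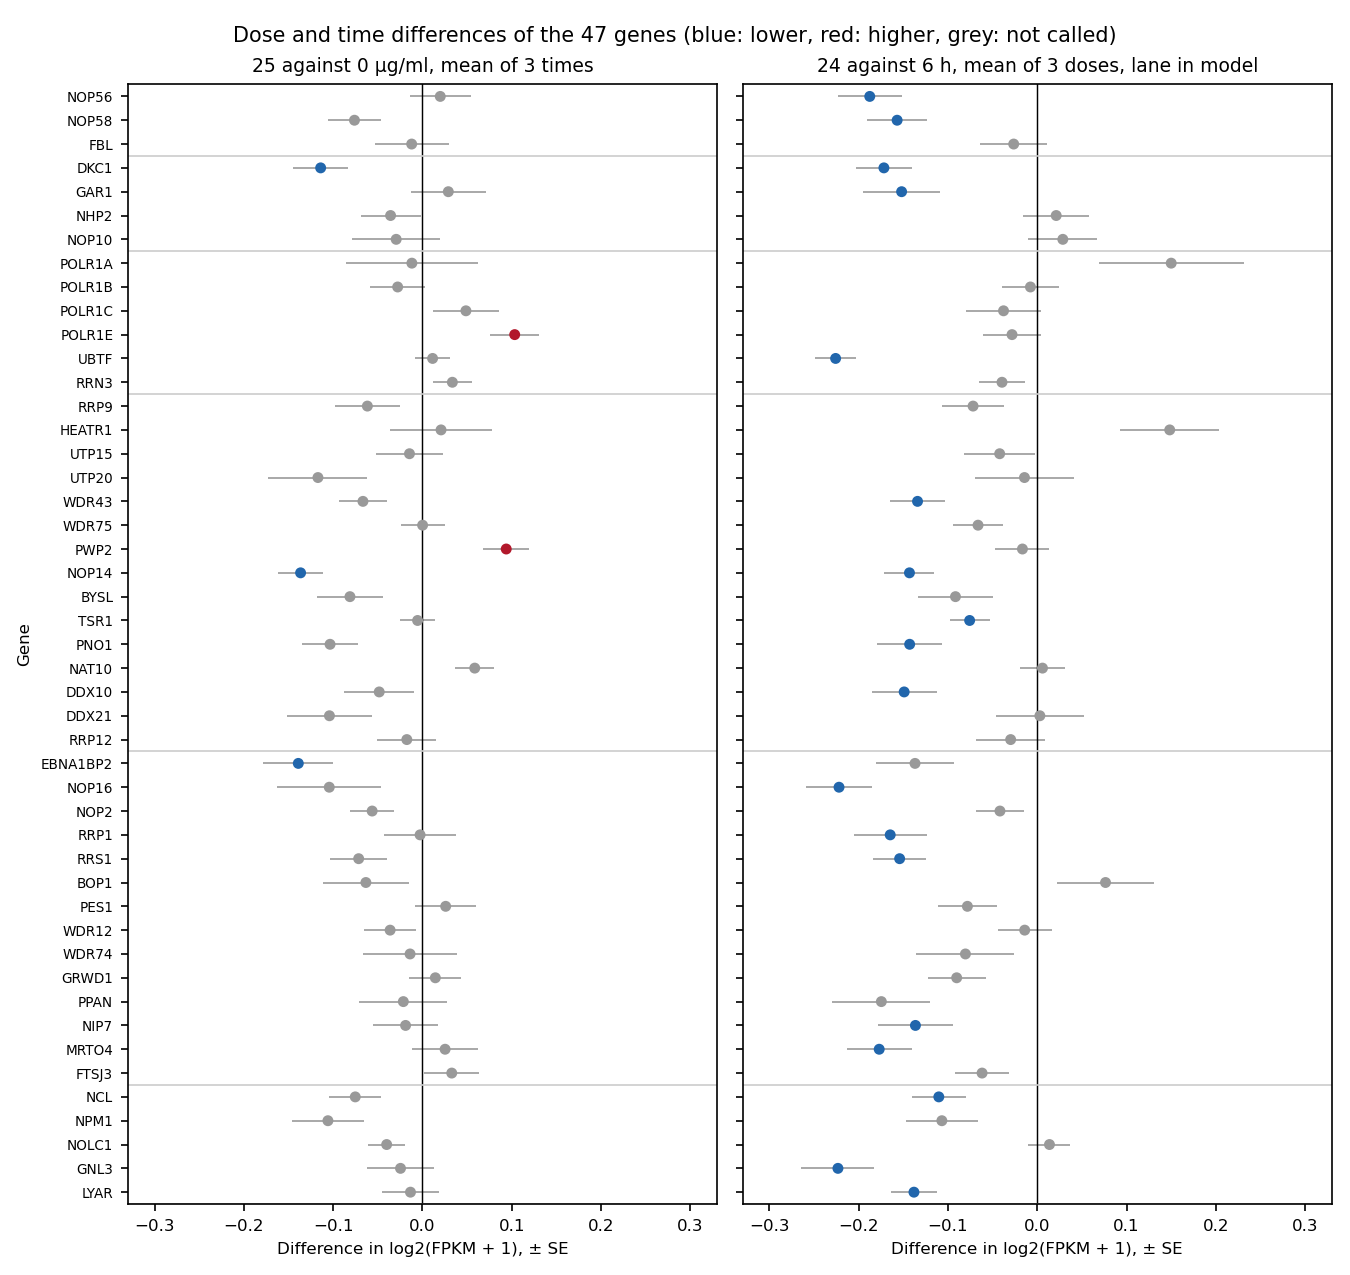
Log2 differences of the 47 genes with their SE, by role, for 25 µg/ml against untreated cells over all times and for 24 h against 6 h over all doses. Blue (lower) and red (higher) points passed an adjusted p of 0.05 in limma, and grey points did not. The dose differences stay near 0, with 2 higher and 3 lower, while the time differences lean below 0, with 18 lower and 0 higher.

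Leaving out any 1 of the 17 libraries other than 25 µg/ml 24 h replicate 1 moved this count by more than 1.5 times, to between 1 and 12. Leaving out 12.5 µg/ml 6 h replicate 1 gave 12 called genes, 2 higher and 10 lower, with 16.9% of all genes called, and leaving out its duplicate also gave 12, at the same share. Leaving out 25 µg/ml 24 h replicate 2 left NOP14 alone, at 7.33% of all genes, and leaving out both gave 7, POLR1E higher and DKC1, NOP14, BYSL, DDX21, EBNA1BP2 and NPM1 lower, at 15.2%. Within lane 4 and within lane 5 no member passed, and the differences kept their sign: NOP14 was -0.16 in lane 4 and -0.09 in lane 5, DKC1 -0.10 and -0.09, EBNA1BP2 -0.11 and -0.15, POLR1E 0.09 and 0.13, and PWP2 0.06 and 0.09. All 25 µg/ml libraries were below all untreated libraries at each of the 3 times for 4 of the 47 genes (8.51%, against 5.81% of all tested genes), and above them for 2, POLR1E and the ribosomal RNA acetyltransferase NAT10 (4.26%, against 7.74%).

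At 12.5 µg/ml against untreated cells, none of the 47 was called in limma, with 0.283% of all genes called and 4 of the 47 at an unadjusted p under 0.05. The median difference was 0.009. At 25 against 12.5 µg/ml, none was called either (0.283% of all genes; 10 of 47 at an unadjusted p under 0.05), with 39 of the 47 differences below 0 and a median of -0.035. This comparison includes 12.5 µg/ml 6 h replicate 1, in which only 8 of the 47 were below their own mean, so the lean rests partly on that library. Without 12.5 µg/ml 6 h replicate 2, 7 members passed at 12.5 µg/ml against untreated cells, with 7.45% of all genes called, and 12 at 25 against 12.5 µg/ml, with 12.3%. That fit keeps only the duplicate that stood apart for the 12.5 µg/ml 6 h group.

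The same dose was then read at each time alone, with the 9 groups fitted together. At 6 h none of the 47 was called (0.225% of all genes; 3 of 47 at an unadjusted p under 0.05 in limma), and at 12 h none was (0.0499%; 4 of 47), where the untreated group was 1 library. At 24 h 7 genes fell and 1 rose, against a background of 16.5% called, 5.76% lower and 10.7% higher. The 7 that fell were NOP58, DKC1, WDR43, NOP14, DDX10, NPM1 and NCL, and the 1 that rose was PWP2. They came from the snoRNP proteins (2), the small-subunit factors (3 lower, 1 higher) and the abundant nucleolar proteins (2). In this fit none of the 6 polymerase genes or the 14 large-subunit factors passed, which does not show that they were unchanged. Among these, both treated libraries were below both untreated ones for POLR1B, EBNA1BP2, NOP16 and WDR12. They were above them for POLR1C, POLR1E, GRWD1 and FTSJ3. The share of all genes that separate in this way is not given. With median centring 0 rose and 8 fell (758 higher and 984 lower over all genes, against 1286 and 692 without it), and with quantile normalization 0 and 7 (951 and 957).

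NOP58, the box C/D scaffold, had 168.0 and 166.0 FPKM untreated at 24 h and 147.9 and 139.2 at 25 µg/ml, against 166.0 and 169.3 and 173.5 and 175.4 at 6 h. The treated libraries were the higher ones at 6 h and the lower ones at 24 h. At 24 h NOP58 fell by 0.22 (SE 0.0484, limma adjusted p = 0.0134). WDR43, which acts early in pre-ribosomal RNA transcription and processing, had 64.3 and 65.6 against 58.9 and 54.0 FPKM at 24 h, with no overlap. It fell by 0.20 (SE 0.0425, limma adjusted p = 0.0109), and at 6 h its values were 67.8 and 67.5 untreated and 67.7 and 69.8 treated. DDX10, an RNA helicase of the small-subunit pathway, had 28.6 and 27.5 against 24.6 and 22.8 FPKM, and fell by 0.24 (SE 0.0632, limma adjusted p = 0.0294).

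The abundant proteins NPM1, a histone and ribosomal-protein chaperone, and NCL, an RNA-binding protein of the dense nucleolus, have the highest levels of the 47. NPM1 had 539.9 and 557.8 FPKM untreated and 488.1 and 446.0 at 25 µg/ml, and fell by 0.23 (SE 0.0648, limma adjusted p = 0.0334). NCL had 902.1 and 882.5 against 822.1 and 773.0 FPKM, and fell by 0.16 (SE 0.0466, limma adjusted p = 0.0377). Neither overlapped at 24 h. At 6 h NPM1 did (520.8 and 527.3 untreated, 526.2 and 501.3 treated), and NCL was higher in the treated libraries (903.5 and 901.4) than in the untreated ones (889.8 and 885.2). NPM1 has processed copies elsewhere in the genome, and how the authors assigned shared reads is not given in the sources used here; its level is uncertain to that extent. NOP14 fell by 0.17 at 24 h (limma adjusted p = 0.0198), DKC1 fell by 0.19 (adjusted p = 0.0240) and PWP2 rose by 0.14 (adjusted p = 0.0410).

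**Figure D3:**
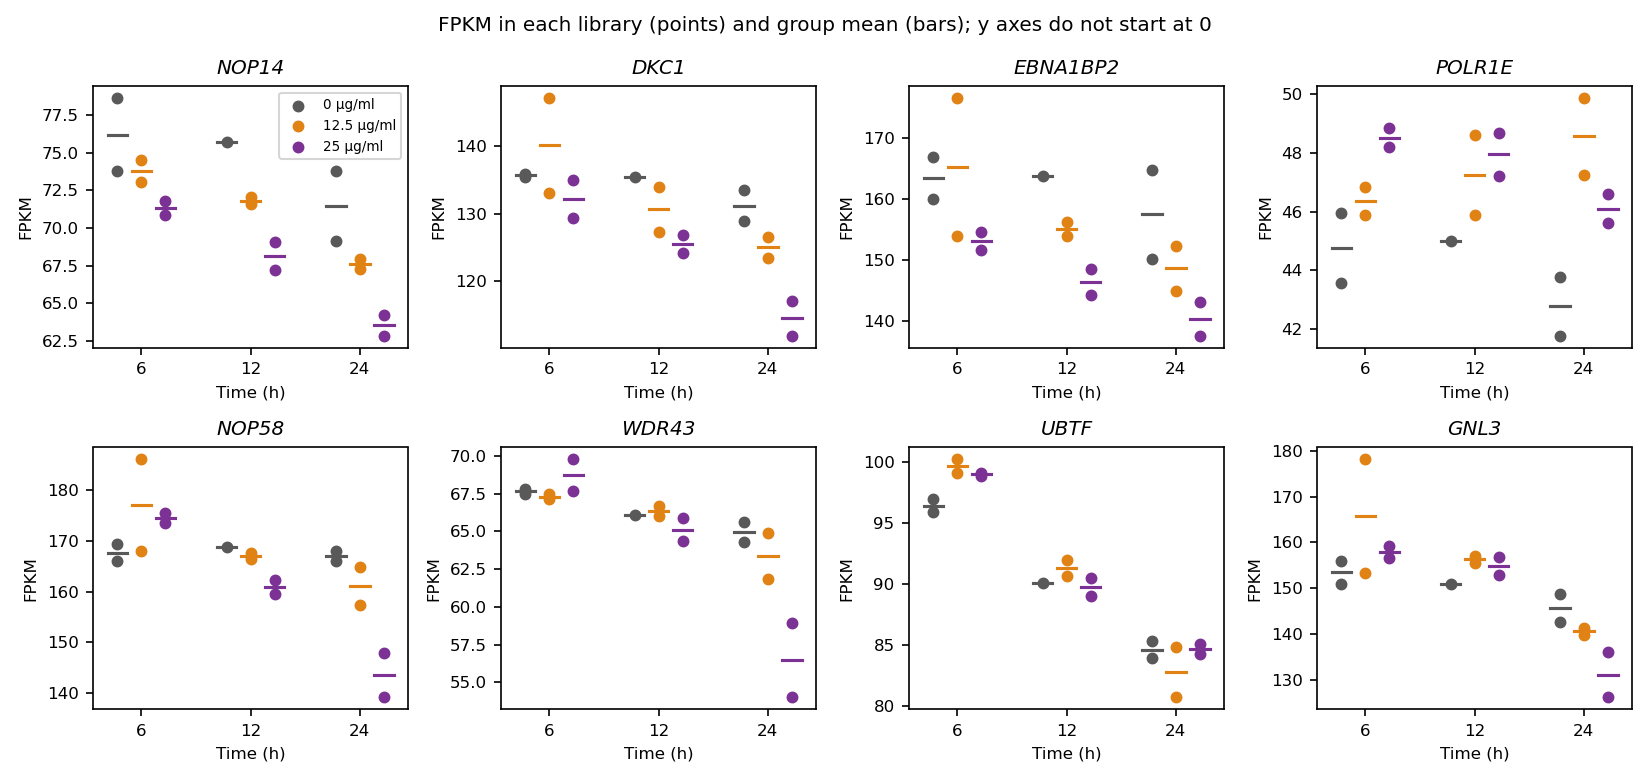
FPKM of 8 called genes in each library, by time and dose; each point is 1 library, and the vertical axes do not start at 0. NOP58 and WDR43 separate by dose at 24 h (NOP58 139.2 and 147.9 at 25 µg/ml against 166.0 and 168.0 untreated), and NOP14 separates at each time. UBTF is ordered by time, with untreated cells lowest at 6 h and the doses mixed at 12 and 24 h.

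In 6 of the 7 that fell, the lower of the treated pair was 25 µg/ml 24 h replicate 2, the library whose deviations rose with GC content; NOP14 was the exception (62.9 in replicate 1, 64.2 in replicate 2). Of the 7 transcripts that fell, 6 had a GC content below the 50.9% median of the 47. They were DDX10 (40.2%), WDR43 (40.3%), NOP58 (41.3%), NPM1 (43.3%), NCL (47.2%) and DKC1 (48.4%). NOP14 had 51.3%, and PWP2, which rose, had 60.0%. Whether GC content caused these differences was not tested. Without that library none of the 47 was called (5.01% of all genes), and the differences were -0.17 for NOP58 (limma adjusted p = 0.111), -0.14 for WDR43 (0.0850), -0.18 for NOP14 (0.0690) and -0.16 for DKC1 (0.162). With a correction of each library for GC content and length 10 of the 47 fell and 0 rose. The share of all genes called in that fit is not given, so this count has no background beside it. DDX10 (-0.17, limma adjusted p = 0.240) and PWP2 (0.03, adjusted p = 0.521) did not pass there. WDR43 (-0.14, limma adjusted p = 0.00365), NOP58 (-0.15, 0.0104), NPM1 (-0.17, 0.0137), NOP14 (-0.18, 0.00791), DKC1 (-0.20, 0.00961) and NCL (-0.16, 0.0281) did. Without 12.5 µg/ml 6 h replicate 1 the count at 24 h was 15, 2 higher and 13 lower (25.6% of all genes), and it was 15 without its duplicate (25.5%). It was 1 without untreated 24 h replicate 1 (8.81%), 1 without replicate 2 (4.02%) and 5 without either untreated 6 h library (13.2% in both fits). Without both libraries that stood apart it was 6, all lower (NOP58, DKC1, WDR43, NOP14, DDX21 and NPM1; 11.9%).

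Whether the effect of 25 µg/ml itself differed between 24 and 6 h was tested as an interaction. None of the 47 passed (3.30% of all genes; 9 of 47 at an unadjusted p under 0.05 in limma). NOP58 had the smallest p, with an effect lower by 0.27 at 24 h (limma adjusted p = 0.0560), followed by WDR43 with -0.22 (0.0694). Without 12.5 µg/ml 6 h replicate 1 or without replicate 2, 5 of the 47 passed (9.67% and 9.66% of all genes), and without 25 µg/ml 24 h replicate 1 it was 2 (7.03%). The calls at 24 h and their absence at 6 h therefore do not show that the effect changed with time.

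The genes were then compared between times in culture. At 24 against 6 h, averaged over the 3 doses with lane in the model, 18 of the 47 fell and none rose (limma, adjusted over 12015 genes), while 19.3% of all genes were called, 10.3% lower and 9.01% higher. The median difference was -0.078 for the 47 against -0.00096 for all genes, and 39 of the 47 were below 0. By role, 2 of 3 box C/D proteins, 2 of 4 H/ACA proteins, 1 of 6 polymerase genes, 5 of 15 small-subunit factors, 5 of 14 large-subunit factors and 3 of 5 abundant nucleolar proteins fell. With lane in the model this contrast rests on the 24 h libraries and the 3 lane 4 libraries at 6 h, 1 of which is 12.5 µg/ml 6 h replicate 1.

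UBTF, which binds the ribosomal DNA and keeps it open for RNA polymerase I, had the largest fall and the smallest p of the 47. It had 97.0, 95.9, 99.1, 100.2, 99.1 and 98.9 FPKM at 6 h, 90.02, 91.9, 90.6, 90.5 and 89.0 at 12 h and 85.3, 83.9, 84.8, 80.7, 84.2 and 85.1 at 24 h. The 3 times did not overlap. At 6 h both untreated libraries were below all treated ones, and at 12 and 24 h the doses were mixed. UBTF fell by 0.23 (SE 0.0230, limma adjusted p = 4.67e-04), and at 12 against 6 h its difference was -0.12 (limma adjusted p = 0.0701). It was called in all 31 alternative settings run for this comparison, with differences from -0.24 to -0.21. The other polymerase genes did not pass: POLR1A had the highest difference of the 47, 0.15 (limma adjusted p = 0.216) and had 21.8 FPKM in the library that stood apart.

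NOP16, an assembly factor of the large subunit, fell by 0.22 (SE 0.0370, limma adjusted p = 0.00431), from 118.3, 108.7, 123.6, 100.03, 112.0 and 96.6 FPKM at 6 h to 98.5, 105.6, 103.8, 107.8, 93.0 and 97.8 at 24 h. Its times overlapped, since the lane 5 libraries at 6 h (108.7, 100.03 and 96.6) were each below their lane 4 duplicates. Without the lane term NOP16 was not called, with a difference of -0.12 (limma adjusted p = 0.138). GNL3 (nucleostemin), a nucleolar GTPase of proliferating cells, had 151.0, 155.9, 178.1, 153.4, 159.3 and 156.5 FPKM at 6 h and 142.5, 148.8, 139.9, 141.4, 136.1 and 126.2 at 24 h. No 24 h library reached a 6 h one, and GNL3 fell by 0.22 (SE 0.0409, limma adjusted p = 0.00679). NOP56, the other box C/D scaffold, had 276.4, 277.8, 317.8, 278.7, 282.1 and 280.9 FPKM at 6 h and 257.4, 249.5, 260.6, 253.2, 255.1 and 259.8 at 24 h. NOP56 also did not overlap between these times, and fell by 0.19 (SE 0.0359, limma adjusted p = 0.00810).

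MRTO4, a large-subunit factor related to the ribosomal stalk protein, fell by 0.18 (limma adjusted p = 0.0108) and completed the 5 largest falls. The remaining 13 fell by 0.08 to 0.17. They were DKC1 and GAR1 of the H/ACA particles, NOP58 of the box C/D particle, NOP14, PNO1, WDR43, DDX10 and TSR1 of the small-subunit pathway, RRP1, RRS1 and NIP7 of the large-subunit pathway, and the nucleolar proteins LYAR and NCL. HEATR1 was among the members that did not pass, at 0.15 (limma adjusted p = 0.0863). For 7 genes, NOP56, UBTF, WDR43, TSR1, PNO1, NIP7 and GNL3, all 24 h libraries were below all 6 h libraries, which is 14.9% of the 47 against 4.13% of all tested genes, and for 0 of the 47 were they all above (3.37% of all tested genes).

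The count of 18 depended on 12.5 µg/ml 6 h replicate 1, where most members were high. Without it 6 of the 47 fell and none rose (NOP56, UBTF, NOP14, NOP16, GNL3 and LYAR), with 3.81% of all genes lower, and the median was -0.055. Without 25 µg/ml 24 h replicate 2 the count was 14 (9.88% of all genes lower), and without both it was 5 (5.02% lower). In that last fit UBTF fell by 0.24 (limma adjusted p = 0.00541), GNL3 by 0.13 (0.0353), LYAR by 0.10 (0.0405), NOP16 by 0.19 (0.0347) and NOP14 by 0.15 (0.0435). Without 25 µg/ml 6 h replicate 1 the count was 10 (4.14% lower). By dose, from group means without a lane term, the median 24 against 6 h difference of the 47 was -0.036 without ILT3.Fc, -0.090 at the lower dose and -0.081 at the higher. In untreated cells the median deviation of the 47 was 0.024 and -0.031 in the 24 h libraries, against 0.011 and 0.013 at 6 h. The lean was thus not seen in both untreated 24 h libraries. The difference between doses was tested only as the interaction above.

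**Figure D4:**
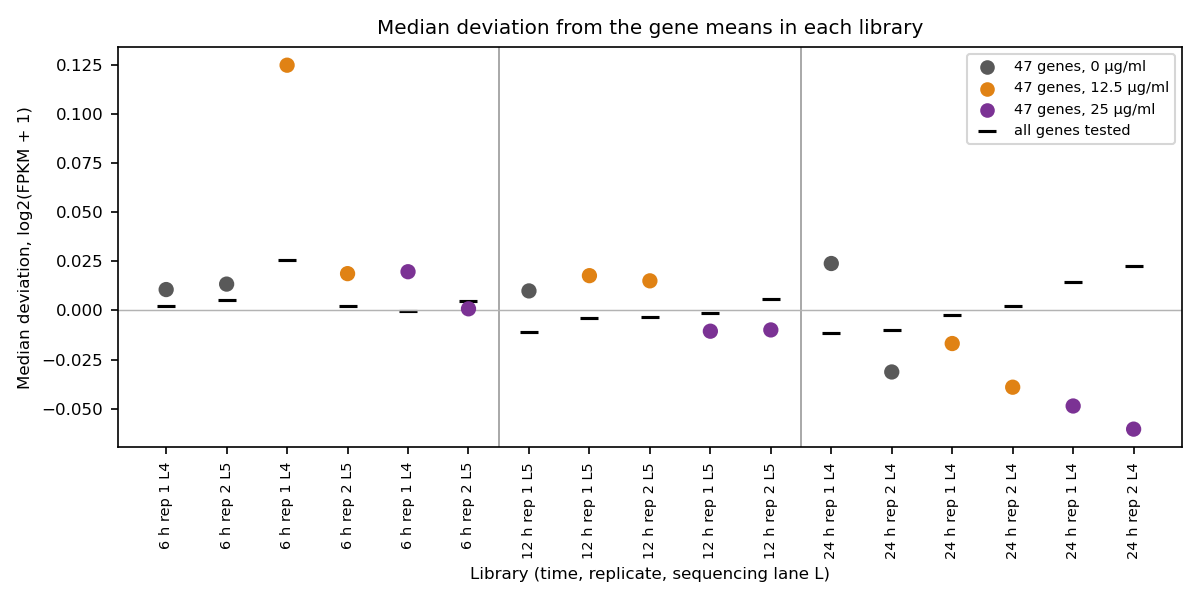
Median deviation of the 47 genes and of all tested genes in each library, on the log2(FPKM + 1) scale, by time and dose. The 25 µg/ml 24 h libraries are the lowest for the 47 (-0.0486 and -0.0604, against 0.0144 and 0.0228 for all genes), and 12.5 µg/ml 6 h replicate 1 is the highest at 0.125.

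At 12 against 6 h none of the 47 was called (0.466% of all genes; 4 of 47 at an unadjusted p under 0.05 in limma). No comparison of 24 with 12 h was computed; those times share no lane, so it would rest on the lane difference among the 6 h libraries. Values within lane 4, where each dose has 1 library at 6 h, gave medians for 24 against 6 h of -0.043, -0.148 and -0.087 at 0, 12.5 and 25 µg/ml, the middle one resting on the library that stood apart.

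Other genes of the ribosome pathway, taken from lists chosen by textbook role, gave these counts at 25 µg/ml against untreated cells over all times. Of 36 other small-subunit factors 6 fell and 1 rose, and of 37 other large-subunit factors 4 fell and 0 rose, with medians of -0.030 and -0.004, where 4.003% of all genes fell. Without 25 µg/ml 24 h replicate 2 the falls in these lists were 4 and 2 (3.19% of all genes lower), and without 12.5 µg/ml 6 h replicate 1 they were 8 and 4 (7.13%). RRP36, an early small-subunit factor, had 93.5 and 94.7 FPKM untreated and 75.1 and 77.5 at 25 µg/ml at 6 h, 82.7 against 72.8 and 73.1 at 12 h, and 93.9 and 98.6 against 78.8 and 82.3 at 24 h. Each treated library was below the untreated ones of its time, and RRP36 fell by 0.24 (limma adjusted p = 0.00114). SDAD1, needed for export of the large subunit, had 38.2 and 38.7 against 34.5 and 35.8 FPKM at 6 h, 36.6 against 33.1 and 32.7 at 12 h, and 37.0 and 39.0 against 30.0 and 28.7 at 24 h. It too did not overlap at any time, and fell by 0.21 (limma adjusted p = 7.54e-04). GNL2, a GTPase of the large subunit, fell by 0.19 (adjusted p = 0.00238) and BMS1, a GTPase of the small subunit, by 0.18 (adjusted p = 0.00159); both changes were larger than that of any of the 47 in this comparison.

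The supporting machinery moved in small numbers. Of 12 snoRNP assembly genes 1 rose and 2 fell: TCOF1 (treacle), a nucleolar scaffold for RNA polymerase I and snoRNPs, rose by 0.15 (limma adjusted p = 0.00312), and the assembly ATPase RUVBL1 and the dyskerin chaperone SHQ1 fell by 0.14 and 0.08. Without 25 µg/ml 24 h replicate 2 this list had 2 higher and 0 lower, so that neither fall held, and without 12.5 µg/ml 6 h replicate 1 it had 1 higher and 3 lower. The shares of all genes given above for the same fits apply to these counts too. Of 9 other polymerase I genes, TAF1C rose by 0.21 (limma adjusted p = 0.0210) and CD3EAP fell by 0.17 (adjusted p = 0.0318). CD3EAP overlaps a gene on the opposite strand, and whether the counting used strand is not given in the sources used here. Of 21 RNA polymerase III genes none was called, of 16 exosome and trimming genes XRN2 fell by 0.12, of 10 export genes XPO1 fell by 0.14, and of 11 snoRNA host genes SNHG3 fell by 0.15. MYC itself, whose group means lay between 178 and 193 FPKM, had a difference of -0.02 (limma adjusted p = 0.574), none of the 11 genes of its network was called, and 1 of 27 other MYC targets rose and 2 fell. Without 12.5 µg/ml 6 h replicate 1, 1 gene of the network was higher and 1 lower, and 2 of the other targets were higher and 4 lower.

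At 24 against 6 h, 11 of the 36 other small-subunit factors fell and 1 rose, 10 of the 37 other large-subunit factors fell and 2 rose, and 4 of the 9 other polymerase I genes fell, against 10.3% lower and 9.01% higher among all genes. Of the 11 snoRNA host genes 6 fell and none rose, led by SNHG12 at -0.41, SNHG1 at -0.36 and SNHG3 at -0.29 in limma. SNHG12 had 24.9 FPKM in 12.5 µg/ml 6 h replicate 1 against 18.7 in its duplicate. The median of the snoRNA host genes was -0.148 without that library. TAF1D, which fell, is in both this list and the polymerase I list and is counted in each. Without 12.5 µg/ml 6 h replicate 1 these counts were 3 lower and 0 higher, 1 and 1, 0 and 0, and 2 and 0 for the same 4 lists, with 3.81% of all genes lower and 4.13% higher. MYC had a difference of -0.05 between these times (limma adjusted p = 0.178).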

How the data were processed

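Gene expression was measured by RNA-seq of 17 Jurkat libraries. The values are FPKM per gene as the authors deposited them, read from 1 table of 25593 lines and 25548 symbols (45 symbols were repeated and 5290, or 20.7%, were at 0 in all libraries). TopHat2 2.1.0 is named per the submitters' processing notes. How FPKM were computed, on which genome build and annotation, and whether with strand, was not given in the sources used here. FPKM keep no counts, and the absolute depth is unknown; steps among low values gave relative depths from 0.68 to 1.00. No interval is given from depth.

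Symbols with a mean of at least 1 FPKM (12015) were transformed to log2(FPKM + 1), a scale that understates the change of low genes, and fitted with limma 3.58.1 in R 4.3.3 with a variance trend and no outlier weighting. Dose comparisons used the 9 groups (8 residual degrees of freedom), and comparisons of times added the sequencing lane (7). P-values were adjusted by Benjamini-Hochberg over all 12015 genes and called at 0.05. The steps were tested on simulated data with planted changes of 0.25 on the log2 scale. Of these, 67.2% were recovered at 25 µg/ml over all times and 26.65% at 24 h. For the interaction 5.9% were recovered, and for 24 against 6 h 54.3%. A gene that was not called may therefore still have changed by that amount. The members and lists were chosen with earlier results of these data known. Named genes are members called in any of 9 comparisons (the 5 largest rises and 5 largest falls where over 10 were called), the 6 with the smallest p at 25 µg/ml over all times, the extremes of each role, up to 4 genes of each other list, and MYC; others were named after their values were seen. Transcript length and GC content were matched by symbol to GENCODE v29 (GRCh38), found for 10213 of the 12015 genes (85.0%), and promoters from RefSeq (GRCh38.p14). Alternatives covered the pseudocount, the filter, the scaling, the variance trend, the lane, GC and length, the replicate number and each library left out.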

Additional observations from a re-analysis of the deposited data

How the results depend on the processing

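Counts are of the 47 genes called in limma. The share of all genes called also moved between fits, as given above, and is not given for each alternative here. A change in these counts is therefore not read as particular to the 47. None of the members called in a comparison of dose or of 24 against 6 h changed direction there in any alternative run. Members that were not called could do so: at 25 µg/ml over all times FTSJ3 was 0.05 in lane 4 and -0.00090 in lane 5, and LYAR -0.03 and 0.02. For 25 µg/ml against untreated cells over all times, 5 were called; the count was 3 with no filter on low values, 1 with no variance trend, 0 in lane 4, 0 in lane 5, 10 with a correction for GC content and length, 0 with 6 and 12 h alone and 0 with 6 and 24 h alone. Leaving out 1 library at a time gave 1 to 12. NOP14 stayed called in 29 of 33 alternatives, POLR1E in 17, DKC1 in 12, EBNA1BP2 in 12 and PWP2 in 10. Leaving out 1 library gave 0 to 7 for 12.5 µg/ml against untreated cells and 0 to 12 for 25 against 12.5 µg/ml. For 25 µg/ml at 24 h, 8 were called; the count was 1 in lane 4, 0 with only the groups compared, 3 without the 12 h libraries, and 0 to 15 with 1 library left out. The interaction with time gave 0, and 1 at a mean of at least 5 FPKM, 2 with quantile normalization, 1 with the GC and length correction, 1 without both libraries that stood apart and 0 to 5 with 1 library left out. For 24 against 6 h, 18 were called, with 11 in lane 4, 5 without both libraries that stood apart and 6 to 24 with 1 library left out. For 12 against 6 h, 0 were called, with 1 under no filter, 1 without the lane term, 1 with the GC and length correction and 0 to 1 with 1 library left out. At 6 h and at 12 h, 25 µg/ml gave 0 in all alternatives run. The cause of these differences was not tested.

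Replicate numbers are shared between groups. Over 28 pairs of groups the correlation of the differences between replicate 1 and replicate 2 ran from -0.183 to 0.128 and was over 0.1 in 2. These differences include the libraries that stood apart and, at 6 h, the lane. They therefore cannot show whether the number pairs the samples. With the replicate block the count was 2 for 25 µg/ml against untreated cells over all times, 7 at 24 h, 0 for the interaction and 11 for 24 against 6 h. The replicate block with GC and length correction gave 9, 10, 0 and 19 for the same 4 comparisons and 1 for 12 against 6 h. The share of all genes called with the replicate block is not given. Depth is unknown, and no limit from it can be given.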
